A study of Mus musculus with 2 samples.

Results

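Transcripts of the circadian clock were followed in resident cells of mouse bone after a single dose of doxorubicin. The set comprised 10 clock genes, chosen by name: Per1, Per2, Per3, Dbp, Tef, Nr1d1, Nr1d2, Arntl, Clock and Ciart. They are 10 of the 21905 genes listed, and all 10 had at least 1 RNA molecule counted. The question was whether all cell types shifted alike, as a difference in the hour of harvest would give.

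Female mice 12 weeks old received vehicle (Veh) or doxorubicin at 10 mg/kg (Doxo), a chemotherapy that breaks DNA, and femurs and tibias were taken 96 h later. Both groups share everything else the labels give. The strain of these mice, the number of mice behind a library and the hour of harvest are not given in the sources used here, while the methods describe housing with equal periods of light and dark. Bones were digested with collagenase in warm medium, and cells carrying CD45, CD71, Ter119 or, by the labels, CD31 were removed before droplet-based 3′ libraries were made. Each condition gave 1 library, so no test between the conditions was possible, and the intervals below, at a level of 95%, reflect counting error alone.

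The deposited log2 values were turned back into unique molecular identifiers (UMIs, each standing for 1 RNA molecule of a cell). Each library held 2488 cells, with a median of 8693 UMIs per cell in Veh and 7347.5 in Doxo, and 4 cell barcodes occurred in both. Clusters built without any of the clock genes were named from fixed marker genes. CAR-like cells (Cxcl12-abundant reticular cells, marrow stroma) were 370 in Veh and 428 in Doxo and showed 8 of 8 markers, and chondrocyte-like cells were 246 and 207, also with 8 of 8. Bone and cartilage fibroblast-like cells numbered 1081 and 1335 with 5 of 8 markers (Fmod, Comp, Cilp2, Thbs4 and Prg4), and those called arteriolar and endosteal fibroblast-like, 439 and 269 cells, had 7 of 8. Osteoblast-like cells numbered 205 and 125 with 6 of 8 markers. Endothelial-like cells, 103 and 69, carried 8 of 8 markers, although the labels name CD31 among the depletion markers. The methods for these libraries do not name it. A cluster of 44 and 55 cells led by Clic5 and Rab37 stayed unnamed. Hemoglobin and other erythroid RNA differed between the libraries, at 683 counts per 1e+06 UMIs (CPM) in Veh against 2.87 CPM in Doxo in chondrocyte-like cells. Immune markers summed to 514 CPM in Veh and 73.0 CPM in Doxo in CAR-like and to 474 and 58.0 CPM in bone and cartilage fibroblast-like cells, against 23.7 and 23.9 CPM in chondrocyte-like cells. Osteoblast markers summed to 8191 and 2305 CPM in CAR-like and to 11531 and 4005 CPM in chondrocyte-like cells, and the median mitochondrial share was higher in Doxo in every class, for example 2.82% and 4.10% in CAR-like cells. The part of these differences in the results was not tested.

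The clock is a loop of transcription and repression. BMAL1, the product of Arntl, pairs with CLOCK and binds E-box sequences in target genes, among them the Per genes, Dbp, Tef, Nr1d1, Nr1d2 and Ciart. PER proteins and CIART repress that pair, the products of Nr1d1 and Nr1d2 (REV-ERBα and REV-ERBβ) repress Arntl, and DBP and TEF are activators that bind D-box sequences. Arntl therefore runs roughly opposite in phase to Nr1d1 and Dbp, and glucocorticoids and feeding set the phase in peripheral tissues such as bone and cartilage. Per1 and Per2 also respond directly to stimuli that raise cAMP or activate the glucocorticoid receptor.

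Some of these genes hold the elements just named close upstream of a start, and those stretches are shown so that they can be set against the values that follow. RefSeq sequence of GRCm38.p6 covered 14 start-site windows for 9 of the 10 genes (not Per2), and the 250 bases before each start were searched on both strands for 3 motifs. The E-box CACGTG occurred in 6.02% of all 32851 such windows and in windows of Ciart, Per1 and Tef. The D-box, searched as TTATGTAA or TTACGTAA, occurred in 0.931% of all windows and in that of Per3. The element TAGGTCA, which ROR and REV-ERB proteins bind, occurred in 2.23% of all windows and in no window of the set. By the annotated positions, the Per1 stretch lies inside its gene (chr11:69095217-69109960) and both Tef stretches inside theirs (chr15:81802421-81826863). Those starts are therefore not at the 5′ end of the annotated gene. Capitals mark the matches, which are letters in a window and not shown to be bound sites, and each stretch below is written 5′ to 3′ on the strand of its gene.
Ciart, chr3:95882255-95882356, minus strand, matches 116, 58 and 44 bases before the start: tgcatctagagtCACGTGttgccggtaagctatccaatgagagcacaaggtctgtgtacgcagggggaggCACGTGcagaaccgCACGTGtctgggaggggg
Per1, chr11:69098771-69098800, plus strand, match 166 bases before the start: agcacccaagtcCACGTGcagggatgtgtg
Tef, chr15:81802534-81802563, plus strand, match 127 bases before the start: gtgctgtggctcCACGTGctgcagctggca
Tef, chr15:81811264-81811293, plus strand, match 138 bases before a second start: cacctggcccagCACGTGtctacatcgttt
Per3, chr4:151044804-151044882, minus strand, matches 205 and 158 bases before the start: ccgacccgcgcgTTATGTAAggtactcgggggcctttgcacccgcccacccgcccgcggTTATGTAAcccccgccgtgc

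The classes did not shift alike. Most targets of BMAL1 and CLOCK were higher in Doxo in chondrocyte-like and in both kinds of fibroblast-like cells, while in CAR-like cells Per1 and Per2 were lower and Per3 and Dbp higher beyond counting error. Arntl was the counterpart, lower in Doxo beyond counting error in bone and cartilage fibroblast-like and in chondrocyte-like cells and near 0 in CAR-like cells. The size of the shift also differed, from 2.80 log2 units for Dbp in chondrocyte-like cells to 0.24 for the same gene in bone and cartilage fibroblast-like cells.

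**Figure D1:**
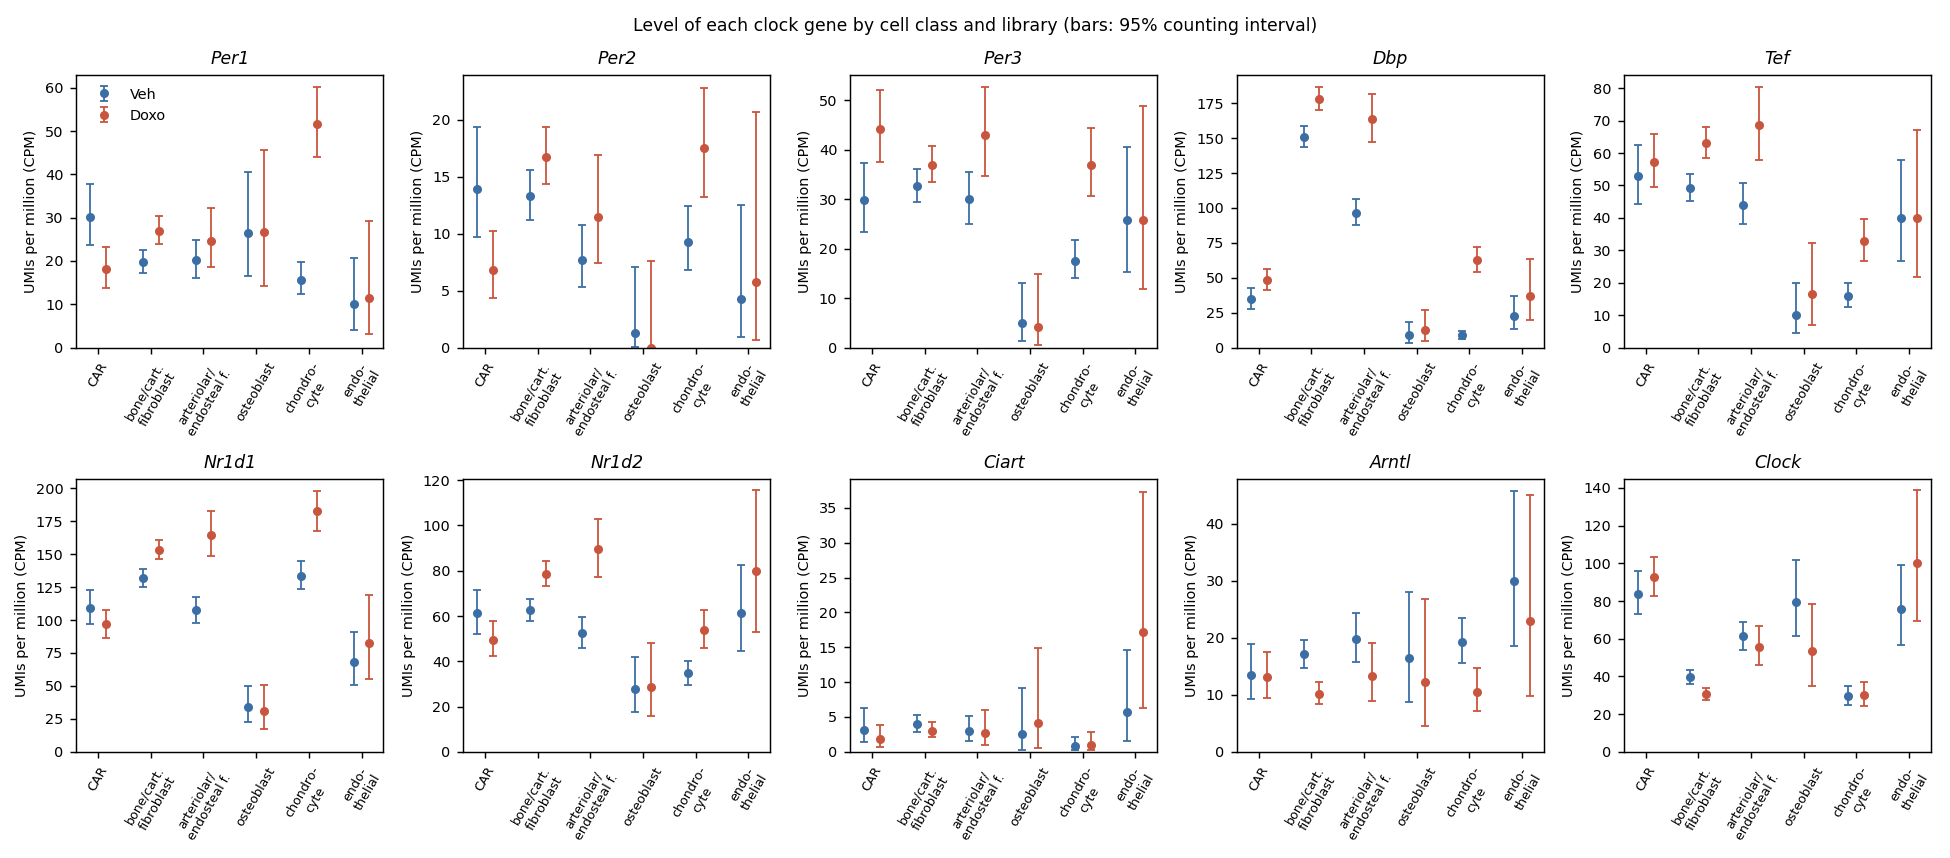
Level of each clock gene (y axis, CPM, linear from 0) in each of 6 cell classes (x axis) for Veh (blue) and Doxo (red); points are the summed UMIs of 1 library and bars exact 95% Poisson intervals. Dbp in chondrocyte-like cells goes from 8.88 CPM in Veh to 62.4 CPM in Doxo with intervals far apart, while Arntl goes from 17.1 to 10.2 CPM in bone and cartilage fibroblast-like cells and stays at 13.5 and 13.1 CPM in CAR-like cells.

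Dbp, which encodes a PAR-bZIP activator and is one of the deepest-cycling clock outputs, had the largest difference of the set. The gene lies at chr7:45705088-45710203 on the plus strand (GRCm38, GENCODE M21). In chondrocyte-like cells it had 43 UMIs in Veh and 196 in Doxo, or 8.88 against 62.4 CPM. On a log2 scale Doxo exceeded Veh by 2.80 (2.33 to 3.33), a value called the ratio from here on, for which 0.5 UMI was added to both sums. Its level in arteriolar and endosteal fibroblast-like cells was 96.5 CPM in Veh and 164 CPM in Doxo, a ratio of 0.77 (0.56 to 0.97), and in CAR-like cells it was 34.5 and 48.1 CPM, a ratio of 0.47 (0.09 to 0.87). Bone and cartilage fibroblast-like cells held most of the Dbp UMIs, 1672 and 1895, and there the ratio was only 0.24 (0.14 to 0.34). Endothelial-like cells had 16 and 13 UMIs and osteoblast-like cells 7 and 6, too few to place their ratios of 0.71 and 0.49 on either side of 0. Dbp was thus higher in Doxo beyond counting error in 4 classes, but in bone and cartilage fibroblast-like cells it was not so in the largest sub-cluster, at -0.10 (-0.23 to 0.02), or at a clustering resolution of 0.2, at -0.038. In Veh, its level in chondrocyte-like cells overlapped that of osteoblast-like cells, at the bottom of the order of classes, and in Doxo it overlapped that of CAR-like cells.

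The share of cells with Dbp behaved like its level. Among chondrocyte-like cells, 8.94% in Veh (5.69% to 13.2%) and 44.9% in Doxo (38.0% to 52.0%) had at least 1 Dbp UMI. Depth ran the other way, with a median of 19484.5 UMIs per cell in Veh and 14753 in Doxo. With each cell thinned to 2000 UMIs and shallower cells left out, the shares were 1.25% (3 of 240 cells) and 12.3% (25 of 203 cells). Osteoblast-like cells, the class with the lowest Dbp level, are set beside these because free RNA can give UMIs in any cell, with thinned shares of 0.637% and 2.02% and unthinned shares of 2.93% and 4.0% at median depths of 3065 and 2930 UMIs. The thinned Veh share in chondrocyte-like cells was close to that of osteoblast-like cells, and the Doxo share was above it. No measure of free RNA was used, so how much of the low shares it makes up was not tested.

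Tef, the other D-box activator of the set, had ratios between 0.03 and 1.04, the lowest in endothelial-like cells, where another scaling of the libraries (median of ratios) gave -0.04. In chondrocyte-like cells it had 15.9 CPM in Veh and 32.8 CPM in Doxo, a ratio of 1.04 (0.61 to 1.49). The ratio was 0.64 (0.32 to 0.95) in fibroblast-like cells of the arteriolar and endosteal class and 0.36 (0.19 to 0.52) in those of bone and cartilage. Both intervals lay above 0, whereas that in CAR-like cells, 0.12 (-0.21 to 0.45), did not.

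The Per genes encode the repressors of the loop, and Per1 and Per2 had opposite signs in CAR-like and chondrocyte-like cells. Per1 lies at chr11:69095217-69109960 on the plus strand and Per2 at chr1:91415982-91459324 on the minus strand. Per1 had 76 UMIs in Veh and 162 in Doxo in chondrocyte-like cells, or 15.7 and 51.6 CPM, a ratio of 1.71 (1.32 to 2.13). In CAR-like cells it had 76 and 61 UMIs, or 30.2 and 18.1 CPM, a ratio of -0.73 (-1.25 to -0.23). Bone and cartilage fibroblast-like cells lay between, with 19.7 and 27.0 CPM and a ratio of 0.45 (0.20 to 0.72). Per1 was highest in CAR-like cells among the Veh classes and in chondrocyte-like cells among the Doxo classes, although in Veh no neighbours in the order differed beyond their intervals. Arteriolar and endosteal fibroblast-like cells had a Per1 ratio of 0.29 (-0.23 to 0.80) and osteoblast-like cells one of 0.03 (-1.11 to 1.07), so neither could be told from 0.

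Per2 followed the same pattern at lower counts. In CAR-like cells it had 35 UMIs in Veh and 23 in Doxo, or 13.9 and 6.83 CPM, a ratio of -1.01 (-1.85 to -0.23). In chondrocyte-like cells it had 45 and 55 UMIs, or 9.29 and 17.5 CPM, a ratio of 0.91 (0.32 to 1.52). Its ratio in bone and cartilage fibroblast-like cells, 0.33 (0.01 to 0.66), barely cleared 0. Per3, their paralog, was not lower in CAR-like cells: it was at 29.8 CPM in Veh and 44.2 CPM in Doxo there, a ratio of 0.57 (0.16 to 0.99). Per3 was also higher in chondrocyte-like cells, by 1.07 (0.66 to 1.5), and in arteriolar and endosteal fibroblast-like cells, by 0.52 (0.12 to 0.92). For bone and cartilage fibroblast-like cells its ratio of 0.18 (-0.03 to 0.39) reached across 0.

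Nr1d1 and Nr1d2, the REV-ERB repressors, had ratios up to 0.62 and 0.77, and the classes stood in the same order for both. Nr1d1 had 463 UMIs in Veh and 361 in Doxo in arteriolar and endosteal fibroblast-like cells, or 107 and 165 CPM, a ratio of 0.62 (0.42 to 0.82), and Nr1d2 had 52.4 and 89.5 CPM, a ratio of 0.77 (0.49 to 1.05). For both genes this class had the highest ratio of the 6. In chondrocyte-like cells the ratios were 0.45 (0.28 to 0.61) for Nr1d1 and 0.63 (0.32 to 0.95) for Nr1d2. In CAR-like cells the ratios were -0.17 (-0.41 to 0.06) and -0.30 (-0.63 to 0.02), the lowest of any class for both. Ciart, a repressor of BMAL1 and CLOCK, was too sparse to follow: only bone and cartilage fibroblast-like cells had at least 20 UMIs of both libraries together (44 and 32), with a ratio of -0.39 (-1.10 to 0.29).

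Arntl, the activator that REV-ERBs repress, had ratios below 0 in each named class, from -0.86 to -0.05. The gene lies at chr7:113207465-113314126, plus strand. Bone and cartilage fibroblast-like cells had 189 UMIs in Veh and 108 in Doxo, or 17.1 and 10.2 CPM, a ratio of -0.75 (-1.10 to -0.40). Chondrocyte-like cells had 93 and 33 UMIs, or 19.2 and 10.5 CPM, a ratio of -0.86 (-1.49 to -0.28). These were the classes whose interval lay below 0. The ratio was -0.56 (-1.23 to 0.05) in arteriolar and endosteal fibroblast-like, -0.35 in osteoblast-like, -0.34 in endothelial-like and -0.05 (-0.73 to 0.64) in CAR-like cells. The sign in CAR-like cells was not stable, with 0.41 (-0.41 to 1.33) in their main sub-cluster described below and 0.71 (-0.65 to 2.31) after thinning. Thinning also turned the ratio in chondrocyte-like cells to 0.06, where only 8 Veh and 7 Doxo cells then had an Arntl UMI. In bone and cartilage fibroblast-like cells the shares with Arntl were 12.9% and 7.04%, and 2.37% (1.54% to 3.48%) and 2.0% (1.31% to 2.92%) after thinning. Over all named classes together, 435 Veh UMIs stood against 228 Doxo UMIs, a ratio of -0.67 (-0.90 to -0.43). Clock, whose product pairs with BMAL1 and whose transcript cycles little in most tissues, was lower in bone and cartilage fibroblast-like cells by a ratio of -0.38 (-0.59 to -0.17). In the other classes its interval held 0, with 0.14 (-0.11 to 0.40) in CAR-like and 0.03 (-0.36 to 0.41) in chondrocyte-like cells.

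**Figure D2:**
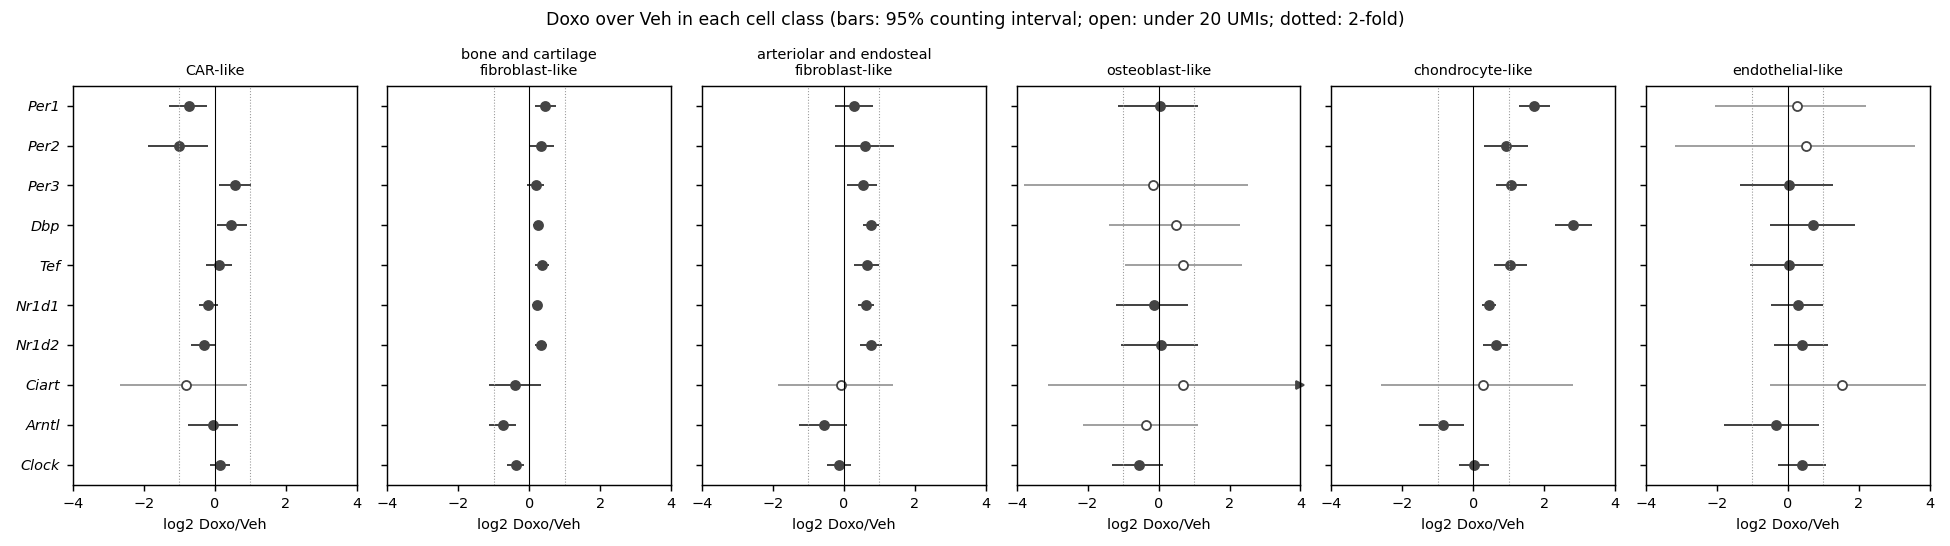
Log2 ratio of Doxo to Veh (x axis) for each clock gene (rows) in 6 cell classes (panels); points are ratios, bars exact 95% counting intervals, open points genes with under 20 UMIs, dotted lines 2-fold, and genes without a UMI in one library are left out. In chondrocyte-like cells Dbp stands at 2.80 and Per1 at 1.71, whereas in CAR-like cells Per1 is at -0.73 and Per2 at -1.01.

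Counted over the set, the classes differed in number as well as in size. In chondrocyte-like cells 9 of the 10 genes had at least 20 UMIs, 8 of these were higher in Doxo (55.4% of all genes were), and 4 were at least 2-fold higher (Per1, Per3, Dbp and Tef). Of all genes with as many UMIs in that class, 4.73% were at least 2-fold higher and 5.19% at least 2-fold lower. In CAR-like cells 4 of 9 were higher (55.2% of all genes), none was 2-fold higher, and Per2, at -1.01, was just past 2-fold lower, beside 3.79% and 3.31% of all genes. In bone and cartilage fibroblast-like cells 7 of 10 were higher (38.3% of all genes), and 7 of 9 were so in the arteriolar and endosteal class (47.9%), with none past 2-fold in either fibroblast-like class. The shares of all genes past 2-fold were 1.32% higher and 3.57% lower in the former and 1.61% and 3.7% in the latter. Osteoblast-like cells had 4 genes with 20 UMIs and endothelial-like cells 7, none past 2-fold, beside 3.08% and 7.31% of all genes in osteoblast-like and 5.14% and 3.87% in endothelial-like cells. The median ratio over the E-box and D-box genes (the set without Arntl and Clock) that had 20 UMIs was 1.04 in chondrocyte-like, 0.62 in arteriolar and endosteal fibroblast-like, 0.28 in bone and cartilage fibroblast-like, 0.28 in endothelial-like, 0.03 in osteoblast-like and -0.17 in CAR-like cells. Over all genes with 20 UMIs in a class, class medians ran from -0.09 to 0.06.

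No gene of the set was past 2-fold in one direction in all 6 classes. Nr1d1, Nr1d2 and Clock had 20 UMIs in each of the 6, and none of these 3 went the same way in all of them. Among the 4637 genes with as many UMIs in each class, 0.0431% were at least 2-fold higher and 0.0863% at least 2-fold lower throughout, and 6.15% were higher and 9.66% lower by any amount. Over the 4 classes with most clock UMIs (CAR-like, both fibroblast-like and chondrocyte-like), a choice made after the values were seen, 9 genes could be followed. Of these, Per3, Dbp and Tef were higher in all 4 and Arntl was lower in all 4, if its -0.05 in CAR-like cells is counted, beside 12.1% and 13.9% of all genes. The interval held 0 for Per3 in bone and cartilage fibroblast-like cells, for Tef in CAR-like cells and for Arntl in CAR-like and arteriolar and endosteal fibroblast-like cells, and Dbp in bone and cartilage fibroblast-like cells changed sign with the clustering. Of the remaining 5, Per1 and Per2 differed in sign between classes beyond counting error, while Nr1d1, Nr1d2 and Clock had intervals clear of 0 on 1 side only.

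The difference of a class's ratio from that of the other 5 classes together describes where the shift was unequal. The UMIs of the other 5 were pooled, so their changed proportions between the libraries also enter the difference. The intervals do not cover that part. For the summed UMIs of the E-box and D-box genes the ratio in chondrocyte-like cells was 0.59 (0.47 to 0.71) above the rest, and arteriolar and endosteal fibroblast-like cells were 0.30 (0.18 to 0.41) above. It was 0.53 below the rest in CAR-like cells, with a difference of -0.53 (-0.67 to -0.39), and the difference was -0.23 (-0.31 to -0.14) for bone and cartilage fibroblast-like cells. Among single genes, Dbp in chondrocyte-like cells stood 2.48 (1.99 to 3.0) above and Per1 1.49 (1.04 to 1.95) above. Per1 in CAR-like cells differed by -1.45 (-2.0 to -0.91), Per2 by -1.58 (-2.45 to -0.73) and Nr1d2 by -0.78 (-1.13 to -0.44). For Arntl, as for the sparse Ciart, the ratio differed from that in the others beyond counting error in no class, with a difference of 0.70 (-0.03 to 1.44) in CAR-like and -0.25 (-0.92 to 0.40) in chondrocyte-like cells. These intervals are wide, so the Arntl shifts are not shown to be equal.

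**Figure D3:**
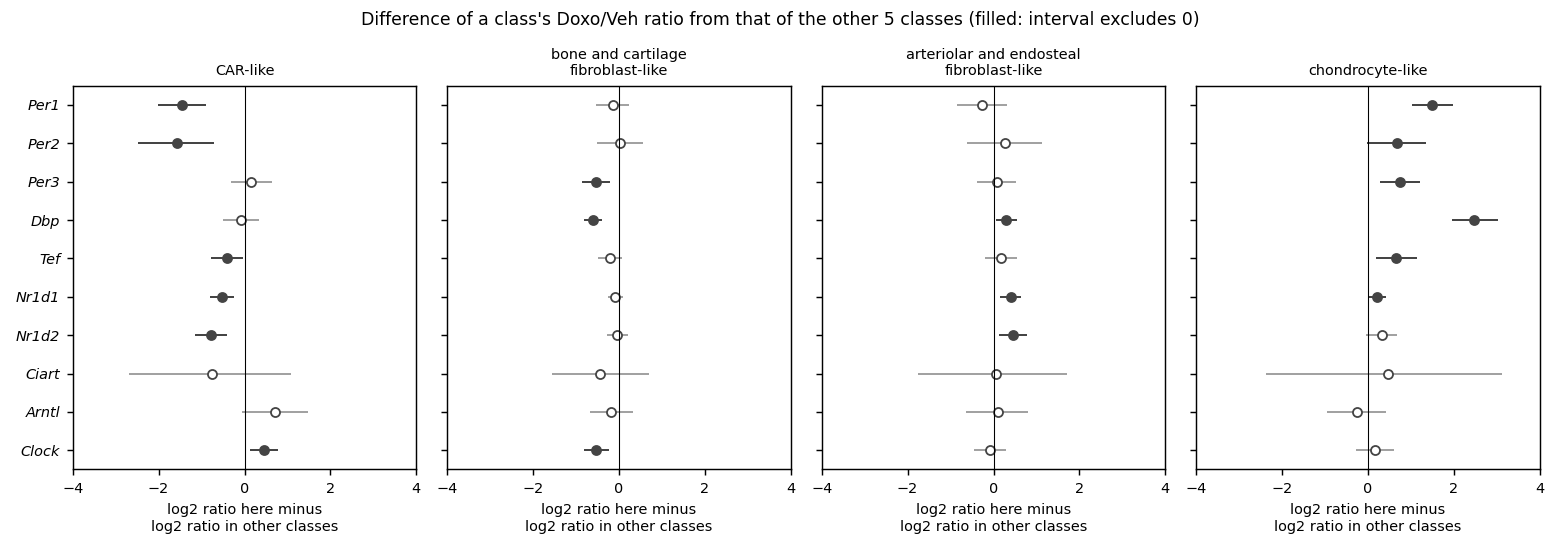
Difference of each clock gene's log2 Doxo/Veh ratio in 1 class from its ratio in the other 5 classes together (x axis) for the 4 classes with most clock UMIs (panels); bars are exact 95% counting intervals and filled points have intervals without 0. Filled points lie to the right for chondrocyte-like cells, up to 2.48 for Dbp, and for CAR-like cells to the left for Per1, Per2, Tef, Nr1d1 and Nr1d2 and to the right for Clock.

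Within the classes, sub-clusters were filled unequally by the libraries. Most Veh chondrocyte-like cells (162 of 246) lay in a sub-cluster with Krt16 and Inhba among its leading genes that held 20 Doxo cells. Most Doxo cells (122 of 207) lay in one led by Ckap2, Ihh and Zfp36 that held 16 Veh cells, and the third, led by Mmp13 and the hemoglobin genes Hba-a1 and Hbb-bs of the erythroid list, held 68 and 65. Dbp was higher in Doxo in each, by 2.82 (1.99 to 3.60), 1.53 (0.40 to 3.31) and 4.17 (2.90 to 6.26) in that order. These rest on 34, 5 and 4 Veh UMIs against 24, 115 and 57 Doxo UMIs, so the Veh side of the last 2 is near the floor. Arntl was lower in each, with ratios of -1.36, -1.34 and -0.66 whose intervals reached across 0. Per1 depended on the sub-cluster: its ratio was 0.48 (-0.87 to 1.47) in the first and 0.90 (-0.13 to 1.98) in the third, and in the second 1 Veh UMI stood against 134 Doxo UMIs, a ratio of 3.63 (1.70 to 9.52). Nr1d1 had a ratio of 0.09 (-0.32 to 0.46) in the first, on 572 and 61 UMIs, and 0.50 (0.04 to 1.03) in the second. In the third, which both libraries filled evenly, Nr1d1 rested on 37 and 108 UMIs, a ratio of 2.03 (1.49 to 2.62). Nr1d2 had 0.50 (-0.31 to 1.31) there, on 28 and 28 UMIs.

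Among CAR-like cells, 84 Veh cells but only 4 Doxo cells formed a sub-cluster led by Cxcl2, Ccl2 and Il6, genes of chemokines and a cytokine. Its Veh cells held 136 of the 275 Nr1d1 UMIs and 31 of the 76 Per1 UMIs of Veh CAR-like cells. In the main CAR-like sub-cluster, with 275 and 407 cells, Nr1d1 had a ratio of 0.26 (-0.05 to 0.58) and Nr1d2 one of -0.09 (-0.51 to 0.34). There Per1 had -0.50 (-1.10 to 0.12), Per2 -0.91 (-1.90 to 0.09) and Per3 0.54 (0.08 to 1.04). The Per1 and Per2 ratios of the main sub-cluster were thus nearer to 0 than those of the class, and their intervals held 0. Without the cells of the sub-cluster that was 95.5% Veh, the summed E-box and D-box genes had a ratio of 0.09 in CAR-like cells, against -0.05 with them.

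Bone and cartilage fibroblast-like cells also held unlike sub-clusters. The Dbp ratio was -0.10 (-0.23 to 0.02) in the largest (653 Veh and 755 Doxo cells) and 0.86 (0.69 to 1.04) in the second (369 and 537 cells). In the third, with 59 and 43 cells, it was 0.92 (0.30 to 1.55). In the second, Arntl went from 21 CPM in Veh to 7.63 CPM in Doxo, with a ratio of -1.45 (-2.09 to -0.86). Arteriolar and endosteal fibroblast-like cells had sub-clusters of 301 and 193, 129 and 73, and 9 and 3 cells. Dbp had 0.62 (0.36 to 0.87) in the first of these and 1.09 (0.73 to 1.44) in the second. Nr1d1 had 0.64 and 0.61. Per2 had 1.94 (0.83 to 3.23), on 10 and 21 UMIs, and -1.21 (-3.35 to 0.21), on 22 and 4.

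**Figure D4:**
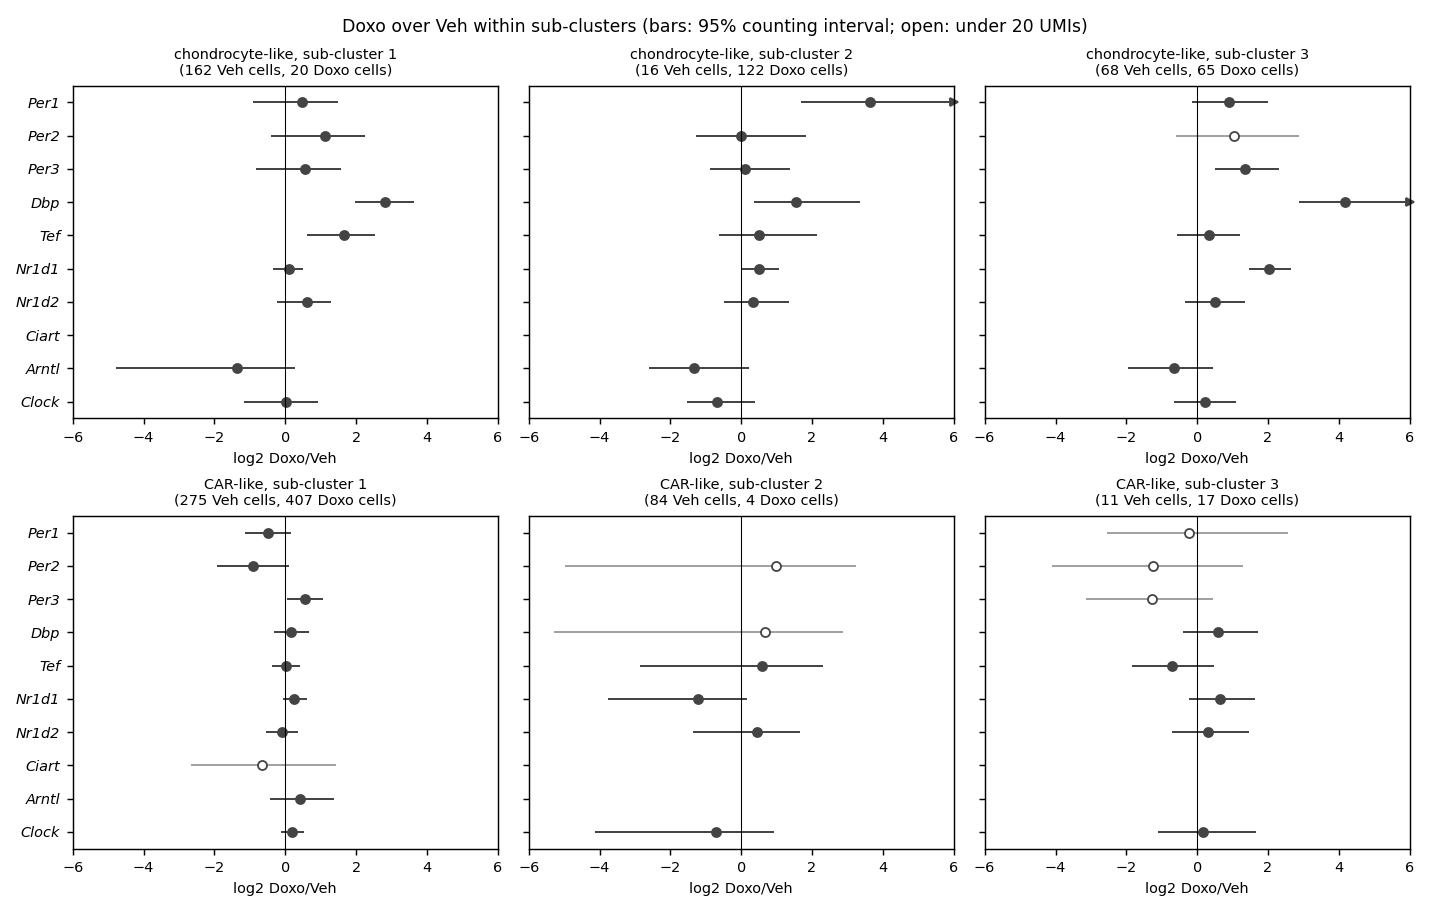
Log2 ratio of Doxo to Veh (x axis) of each clock gene (rows) within 3 sub-clusters of chondrocyte-like cells (top) and of CAR-like cells (bottom), with the cells of each library in the panel titles; bars are exact 95% counting intervals, open points have under 20 UMIs, arrows run past the axis, and genes without a UMI in one library are left out. Dbp lies above 0 in all 3 chondrocyte-like sub-clusters (2.82, 1.53 and 4.17), and the second CAR-like panel rests on 4 Doxo cells.

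Other genes of the clock, from a list of 16, gave no common direction as a list. In chondrocyte-like cells 9 of 16 were higher and 1 was at least 2-fold higher, near the shares of all genes there (55.4% and 4.73%). That 1 was Hlf, the PAR-bZIP activator related to Dbp and Tef, with 11 Veh UMIs against 33 Doxo UMIs and a ratio of 2.17. Hlf was also past 2-fold in bone and cartilage fibroblast-like cells, with 133 and 298 UMIs and a ratio of 1.22. Bhlhe41, a repressor at E-boxes, had a ratio of 1.36 in arteriolar and endosteal fibroblast-like cells. Of the 14 that CAR-like cells allowed, 4 were higher (55.2% of all genes). Nfil3, the repressor at D-boxes that opposes Dbp, had 171 and 98 UMIs there and a ratio of -1.22. It was also lower in bone and cartilage fibroblast-like cells, at -0.53 (-0.83 to -0.24). In chondrocyte-like cells Nfil3 had -0.03 (-0.43 to 0.37) and in endothelial-like cells 0.57 (-0.71 to 1.77). Median ratios of this list lay between -0.27 in CAR-like and 0.13 in endothelial-like cells. Of 10 clock output genes, including Usp2, Wee1 and Nampt, 9 could be followed in chondrocyte-like cells. There 7 were higher (55.4% of all genes, list median 0.51), against 2 of 10 in CAR-like cells (55.2% of all genes, list median -0.26).

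Other lists moved along with the clock genes. Immediate-early genes, which respond to stimulation and to dissociation of tissue, had a median ratio of 1.11 in chondrocyte-like cells. There 12 of 20 were at least 2-fold higher, beside 4.73% of all genes. Their median was 0.51 in arteriolar and endosteal fibroblast-like, 0.48 in bone and cartilage fibroblast-like, 0.41 in endothelial-like, -0.44 in CAR-like and -0.53 in osteoblast-like cells. The classes with the highest and the lowest medians of the clock genes were thus also high and low in this list. Among cells at or under the median immediate-early share of their class (180 Veh and 47 Doxo chondrocyte-like cells), the summed E-box and D-box genes had a ratio of 0.61 (0.38 to 0.82) in chondrocyte-like cells, against 0.89 (0.78 to 1.00) in all of them. Dbp there kept a ratio of 2.43 (1.70 to 3.14), whereas Per1, with 47 and 8 UMIs, had 0.19 (-1.18 to 1.21). In CAR-like cells the low-share cells gave the summed genes a ratio of 0.14 (-0.08 to 0.37).

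Glucocorticoid-response genes had median ratios from -0.51 in CAR-like to 0.66 in endothelial-like cells. In chondrocyte-like cells 5 of 12 were higher (55.4% of all genes), with a median of -0.10. Within the list, canonical targets of the receptor went different ways, a choice made after their values were seen. Fkbp5 had ratios above 0 in every named class, from 0.20 (-0.22 to 0.63) in CAR-like to 1.59 (1.17 to 2.03) in arteriolar and endosteal fibroblast-like cells. So did Tsc22d3, from 0.23 (0.09 to 0.38) in CAR-like to 1.09 (0.96 to 1.22) in chondrocyte-like cells. Intervals held 0 for Fkbp5 in CAR-like and osteoblast-like cells and for Tsc22d3 in osteoblast-like and endothelial-like cells. By contrast, Sgk1 had -1.74 and Errfi1 -1.67 in CAR-like cells. The cold-inducible genes Cirbp and Rbm3, which follow body temperature, had ratios from 0.13 to 0.59, and those of Cirbp in osteoblast-like cells and of both in endothelial-like cells lay within counting error of 0. The heat-shock gene Hsph1 had ratios from -1.84 in CAR-like to -0.59 in arteriolar and endosteal fibroblast-like cells, and its interval held 0 in osteoblast-like cells. The other heat-shock genes of that list differed by class: Dnajb1 had a ratio of 1.53 in chondrocyte-like and -0.95 in CAR-like cells. The part of these lists in the clock differences was not tested, and the hour of harvest, the treatment and the mice of each library cannot be told apart.

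**Figure D5:**
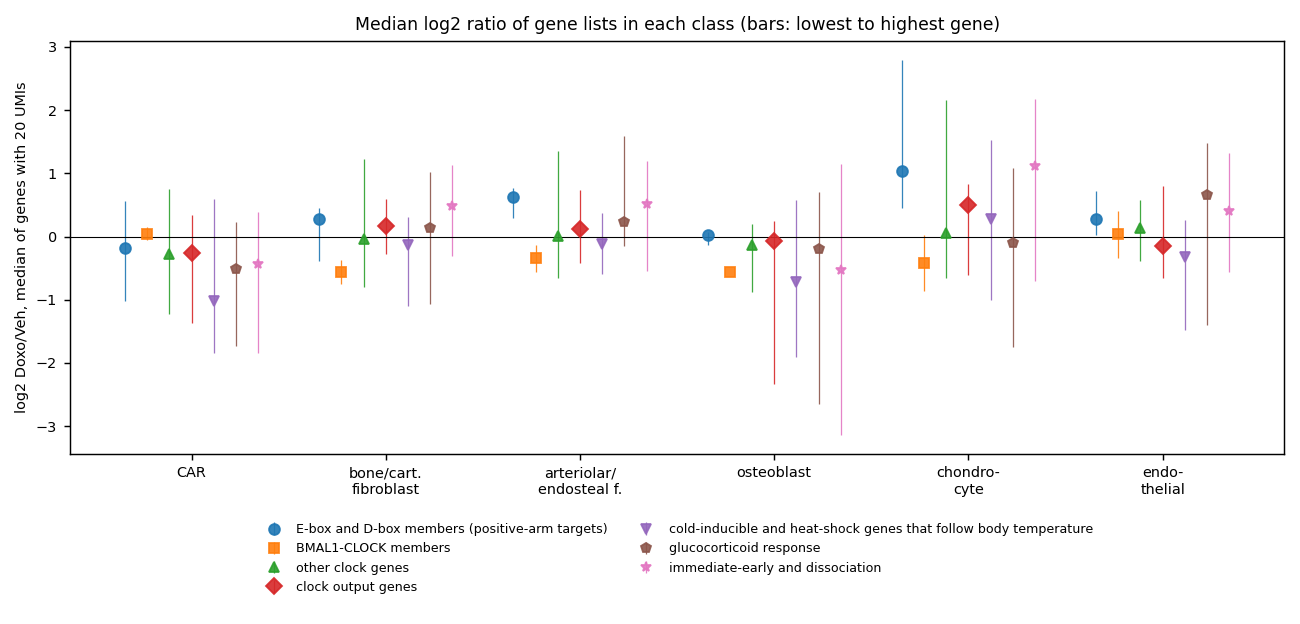
Median log2 ratio of Doxo to Veh (y axis) of 7 gene lists in each of 6 cell classes (x axis), over genes with at least 20 UMIs; bars run from the lowest to the highest gene of a list and are not errors. The E-box and D-box clock genes (blue circles) and the immediate-early genes (pink stars) both have their highest medians in chondrocyte-like cells, 1.04 and 1.11.

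Genes whose pattern was most like that of the E-box and D-box clock genes were sought among the 1986 genes with at least 50 UMIs in every class, over 12 points (6 classes in 2 libraries) centred within each class. Pearson's r was highest for Arid1a (0.97), Clk1 (0.95), BC005537 (0.94), Morf4l2 (0.94) and Brd2 (0.94), and lowest for Serf2 (-0.98), Mmp14 (-0.97), Eif2s2, Armcx3 and mt-Nd2. Centring leaves 1 difference per class, and all points come from the same 2 libraries, so r only describes an order of 6 values. The immediate-early genes Rhob (0.93), Dusp1 (0.93) and Fos (0.91) lay almost as close.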

How the data were processed

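The authors aligned reads to GRCm38 with Cell Ranger (version not given in the sources used here), and the labels also name Partek. The deposited values are on a log2 scale, which the authors reached in 2 rounds of scaling within each cell, as the values themselves show. These were inverted to UMIs, whole within 0.05 for 99.9% of values up to 50 UMIs, and 27 symbols that were not whole include none of the 10 clock genes. The libraries held 24859695 UMIs (Veh) and 20792012 UMIs (Doxo). Both were merged in Seurat 5.3.0 (R 4.3.3) without integration, with 2000 variable genes without any listed clock, immediate-early, glucocorticoid or temperature gene, 35 components and resolution 0.1. Endothelial clusters were set aside and the rest clustered again. A class needed 3 markers in at least 10% of cells and at least 1 log2 unit above other cells. Sub-clusters were made within CAR-like, chondrocyte-like and both kinds of fibroblast-like cells only, a step added after the data were seen. They used the lowest resolution giving 3, in steps of 0.05, on 20 components. Doublets were kept, and no caller was run.

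UMIs were summed per class and library (CPM). Ratios add 0.5 UMI and have exact conditional binomial intervals, levels exact Poisson intervals, shares exact binomial intervals, and differences between classes exact conditional odds-ratio intervals (numpy 2.4.6, scipy 1.17.1, pandas 2.3.3, Python 3.11.15, drawn with matplotlib 3.10.9). Inversion, ratios and intervals were tested on simulated data. With 1 library per condition there is no test. A gene is counted in a class from 20 UMIs of both libraries together. All 10 clock genes are named, with listed genes and the 5 most and 5 least alike. The genes, lists and tests were chosen with earlier results of these data known. Alternatives were other clusterings, marker assignment, thinning, stricter cells, other scalings and folds.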

Additional observations from a re-analysis of the deposited data

Results flagged for a closer look

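Per1 and Per2 went opposite ways in different classes of the same libraries. Per1 had a log2 ratio of Doxo to Veh of -0.73 in CAR-like cells, 0.45 in bone and cartilage fibroblast-like cells and 1.71 in chondrocyte-like cells. Per2 had -1.01, 0.33 and 0.91 in the same classes. Each of these 6 intervals lay on 1 side of 0, and those of CAR-like and chondrocyte-like cells also differed from the other classes beyond counting error. In the main CAR-like sub-cluster, however, the intervals of Per1 (-1.10 to 0.12) and Per2 (-1.90 to 0.09) held 0. In chondrocyte-like cells with a low immediate-early share Per1 was at 0.19 (-1.18 to 1.21), and in all of them 134 of its 162 Doxo UMIs came from a sub-cluster of 16 Veh and 122 Doxo cells. Per2 in bone and cartilage fibroblast-like cells turned to -0.053 among cells with a low immediate-early share and to -0.23 without cells with 3 markers of a second class. The difference across mice was not tested, since each condition has 1 library.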

How the results depend on the processing

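Each condition has 1 library, so mice, hour of harvest and treatment are confounded. No paired analysis was possible because 1 library per condition leaves no pairs. Of 134 values of summed genes under the alternatives, 115 stayed within their counting interval, as did 596 of 670 values of single genes and 163 of 186 counts past 2-fold within 1.5 times. Leaving out cells with 3 markers of a second class left 3 Veh and 2 Doxo chondrocyte-like and 6 and 4 arteriolar and endosteal fibroblast-like cells, and gave the most reversals. The E-box and D-box sum became -1.04 in chondrocyte-like, -0.49 in CAR-like and 0.51 in arteriolar and endosteal fibroblast-like cells. Arntl and Clock summed became -0.27 in CAR-like, -1.08 in bone and cartilage fibroblast-like, -1.25 in chondrocyte-like and -0.54 in endothelial-like cells. Nr1d1 and Nr1d2 in chondrocyte-like cells turned to -2.47 and -0.40, Tef in arteriolar and endosteal fibroblast-like cells to -1.69, Dbp in CAR-like cells to -0.58 and Per2 in bone and cartilage fibroblast-like cells to -0.23. The counts past 2-fold were then 0 lower in CAR-like, 1 lower in bone and cartilage fibroblast-like and 0 higher in chondrocyte-like cells. Leaving out cells over 2 times the median UMIs of their class, chosen after seeing the data, moved no sum.

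Among cells at or under the median immediate-early share, the E-box and D-box sum was 0.14 in CAR-like, 0.59 in osteoblast-like and 0.61 in chondrocyte-like cells, and Per2 in bone and cartilage fibroblast-like (-0.053) and Nr1d2 in chondrocyte-like cells (-0.15) changed sign. Thinning gave an E-box and D-box sum of 0.77 in osteoblast-like cells and turned Arntl in chondrocyte-like cells to 0.061 on 8 and 7 UMIs, with 2 genes 2-fold higher there. Assigning cells by markers gave an E-box and D-box sum of 0.99 in arteriolar and endosteal fibroblast-like cells, with 3 genes 2-fold higher and 1 lower. A resolution of 0.2 gave a sum of 0.17 and a Dbp ratio of -0.038 in bone and cartilage fibroblast-like cells, and median-of-ratios scaling a sum of 0.34. The mean of deposited log2 values gave sums of 0.094 in CAR-like and -0.00914 in endothelial-like cells, and -0.39 for Arntl and Clock in the latter. Stricter cell filters put Arntl and Clock at -1.40 in osteoblast-like cells, with 1 gene 2-fold lower. Without the CAR-like sub-cluster mostly of Veh, also chosen after seeing the data, the CAR-like sum was 0.092. Within sub-clusters, 50 values counted as unchanged, 36 as moved and 2 as reversed. The reversed values were Dbp in the first of bone and cartilage fibroblast-like cells (-0.10) and Per2 in the second of chondrocyte-like cells (-0.016). Both had class intervals clear of 0. Other values also changed sign without that label, among them 2 whose class intervals held 0. These were Nr1d1 in the first of CAR-like cells (0.26) and Per2 in the second of arteriolar and endosteal fibroblast-like cells (-1.21).

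Per2, just past 2-fold in CAR-like cells, fell short of it (0 genes) with 20 components, thinning, equal weight per cell, low immediate-early cells, no cells over 2 times the median UMIs and no sub-cluster mostly of Veh. In arteriolar and endosteal fibroblast-like cells 1 gene was 2-fold higher with thinning, equal weight or no cells over 2 times the median UMIs. Marker assignment gave 1 such gene in osteoblast-like and low immediate-early cells 1 in endothelial-like cells. At 1.5-fold, CAR-like cells had 2 lower, bone and cartilage fibroblast-like and chondrocyte-like cells 1 lower each, arteriolar and endosteal fibroblast-like cells 4 higher and endothelial-like cells 1 higher. In chondrocyte-like cells the 4 genes at least 2-fold higher were then joined by Per2 (1.88-fold) and Nr1d2 (1.55-fold). Shares of all genes under these alternatives are not given here, so the counts have no background beside them. The causes of these changes were not tested. Ciart, and single genes in osteoblast-like and endothelial-like cells, rest on few UMIs and have wide intervals.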
